A study of Mus musculus with 19 samples.

Results

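The 681 regions described here were SOX3 ChIP-seq peaks with a midpoint in an exon, away from annotated promoters, in mouse testis at postnatal day 7. They were chosen by a rule on the deposited ChIP-seq peak lists. A replicate 1 peak was a member if it shared at least 1 bp with a replicate 2 peak and lay more than 2 kb from every RefSeq curated transcription start site of the mm10 genome. Its midpoint also had to lie in an annotated exon, with an observed to expected CpG ratio below 0.6 in the surrounding 500 bp. Of the 58351 peaks of replicate 1, 42016 lay outside the promoter windows and 40521 of those were CpG-poor. Of these 3297 had an exonic midpoint, and 681 of the 3297 (20.7%) were found in replicate 2. The same step kept 18.6% of all 40521 CpG-poor peaks outside promoters, so the rule left exonic peaks at a share near that of the rest (17.5% of intronic and 19.6% of intergenic peaks). Presence in both lists, place, CpG ratio and score threshold all chose the members, and these values are given as a description only.

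Peak lists of 4 of the 19 labelled samples were used, namely 2 replicates of SOX3 ChIP-seq and 2 of SOX3 ChIP-nexus, in which an exonuclease trims the precipitated DNA. The mice were on a C57BL/6J background, and per the study's methods sonicated chromatin of seminiferous tubules from 3 mice was precipitated, per the labels with 2 SOX3 antibodies, and scored against input. All 4 samples shared age and background and no genotype or treatment was compared. Tubules hold germ cells and somatic cells, and the lists hold no expression values, so the cell type that gave a peak cannot be told from them and the tissue was not checked against markers. The lists held 58351 and 38832 peaks, and the number of reads behind a peak was not in them, so the intervals below cover counting error over peaks only.

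SOX3 is an HMG-box transcription factor made by undifferentiated spermatogonia, and SOX proteins bind short AT-rich sites that resemble AACAAT and ACAAAG. Most factor binding found by ChIP-seq lies at promoters, introns or intergenic enhancers, and exons make up a small part of the genome. A first exon adjoins the start site, inner exons are short and mostly coding, and the last exon usually holds the stop codon and the whole 3′ UTR. Coding exons are richer in G and C than introns, and the CpG ratio separates CpG islands, which are common at promoters, from ordinary sequence in which CpG has been lost.

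The peak centres are shown for the highest ranked member of each exon class, read from the GRCm38.p6 (mm10) RefSeq genome on the strand of the gene or motif. Members were ranked by the mean of their percentile ranks by q score within the 2 lists. In the 300 bp around the midpoint of the Kank3 peak (highest inner exon), capitals mark exon 4 of 11, which is coding and lies between introns in lower case. In the Neat1 window (highest single exon), all bases are in capitals because the whole window lies in the transcript of this long noncoding RNA. Of the H13 peak, the highest in a last exon, only the 2 SOX motif matches near the midpoint are shown, each with 12 bases either side and the match in capitals, because the midpoint lies in a 3′ UTR.
Kank3, chr17:33818454-33818753, plus strand: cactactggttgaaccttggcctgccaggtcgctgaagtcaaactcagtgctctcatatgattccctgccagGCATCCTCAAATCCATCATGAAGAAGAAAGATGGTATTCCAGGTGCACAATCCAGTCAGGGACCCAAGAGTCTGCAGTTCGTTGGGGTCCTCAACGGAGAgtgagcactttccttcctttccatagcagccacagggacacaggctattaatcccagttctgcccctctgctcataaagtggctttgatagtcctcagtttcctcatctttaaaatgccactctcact
Neat1, chr19:5833134-5833433, minus strand: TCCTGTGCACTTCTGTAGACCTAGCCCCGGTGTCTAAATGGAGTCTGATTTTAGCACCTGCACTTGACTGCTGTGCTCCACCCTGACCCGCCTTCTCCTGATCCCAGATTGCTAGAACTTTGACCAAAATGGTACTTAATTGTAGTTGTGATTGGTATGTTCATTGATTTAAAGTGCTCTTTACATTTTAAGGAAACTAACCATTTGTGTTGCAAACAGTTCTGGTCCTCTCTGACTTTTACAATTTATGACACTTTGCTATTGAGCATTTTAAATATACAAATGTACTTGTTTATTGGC
H13 AACAAT match, chr2:152706973-152707002, plus strand: gagattaattgtAACAATcctatatggcac
H13 ACAAAG match, chr2:152706920-152706949, plus strand: tcccccttggctACAAAGagttcaaagcca
Neither the Kank3 nor the Neat1 window held AACAAT or ACAAAG on either strand, and the H13 window held both.

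The members fell almost wholly into inner and last exons. A total of 369 (54.2%, exact binomial 95% interval 50.4–58.0) had their midpoint in the last exon and 308 (45.2%, 41.4–49.1) in an inner exon. The remaining 4 (0.587%) lay in genes of a single exon, and 0 lay in a first exon, which allows a share of up to 0.441% when 3 counts are taken as the limit (0.540% by the exact interval). The rule itself left few first-exon positions, since a first exon must reach beyond 2 kb from its start site: of all CpG-poor exonic positions outside promoters, read every 50 bp, 0.138% were in first exons, 42.3% in inner exons and 56.5% in last exons. The members' split therefore lay close to that of the annotated positions. Among the 2616 exonic CpG-poor peaks of replicate 1 that were not found in replicate 2, 51.3% were in inner and 47.7% in last exons, with 6 in first exons. Over all 3297 such peaks of replicate 1, without the overlap, inner exons held 50.05% and last exons 49.1%, so there inner exons were the larger class, and over all 1792 of replicate 2 the shares were 49.1% and 49.9%. Transcripts of a gene disagreed on the class at 6 members only.

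The exonic share of peaks was higher in GC-rich sequence. Exons made up 2.17% of the CpG-poor positions outside promoters, against 8.14% of replicate 1 peaks, 7.41% of replicate 2 peaks (mean 7.77% ± 0.512, SD, n = 2) and 9.03% of the 7540 peaks found in both lists. The members were GC-rich, with a median of 54.8% GC in 500 bp (lowest 34.8%, highest 68.6%), beside 52% for intronic and 51.6% for intergenic peaks found in both lists. From 40 to 65% GC the gap between peaks found in both lists and the annotation was smaller within each class than over all positions. At 50 to 55% GC, 5.37% of positions and 7.86% of peaks found in both lists were exonic, at 55 to 60% the values were 15.7% and 15.4%, and at 60 to 65% they were 25.3% and 28.0%. At 45 to 50% GC they were 2.34% and 3.51%, and at 40 to 45% they were 1.61% and 3.61% (9 members). The gap was wider at 65 to 70% GC, where 15.5% of positions, 42.0% of replicate 1 peaks and 24.3% of the 37 peaks found in both lists were exonic. The number of reads and the mappability at these positions were not in the lists, and their part in the shares was not tested.

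**Figure D1:**
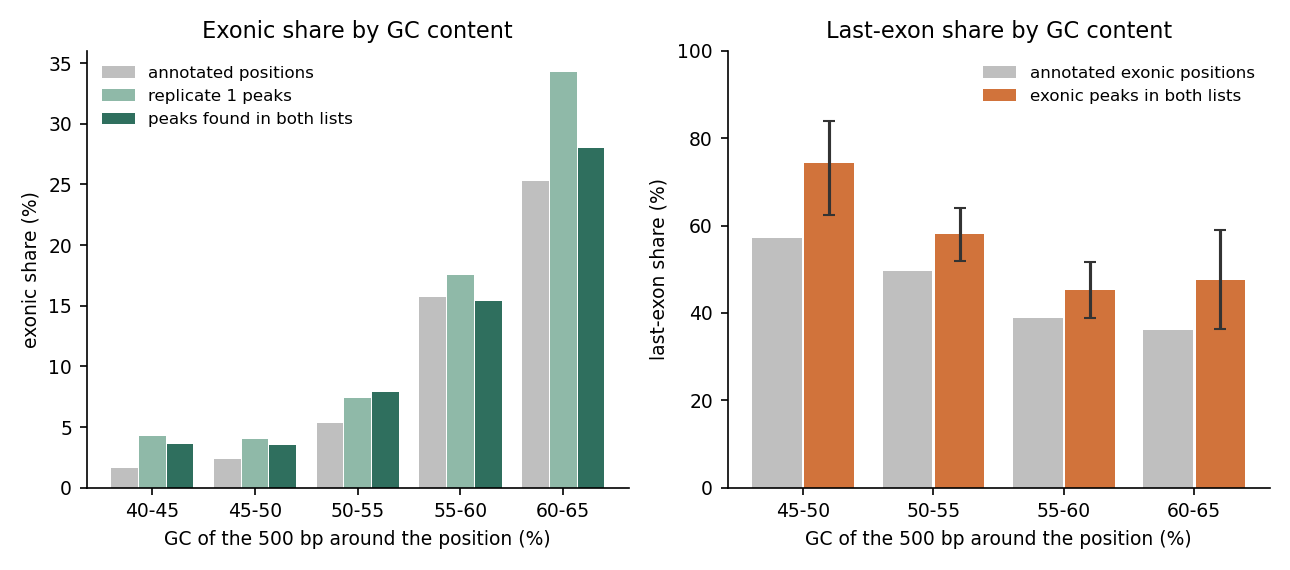
Left, exonic share (%) of annotated CpG-poor positions outside promoters, of replicate 1 peaks and of peaks found in both lists, by GC of the surrounding 500 bp. Right, last-exon share (%) of annotated exonic positions and of the members in 4 GC classes, with exact binomial 95% intervals. At 55 to 60% GC the exonic shares of positions (15.7%) and of peaks in both lists (15.4%) were nearly equal, while the last-exon share of members lay above that of positions in each class.

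The split between inner and last exons also moved with GC. Last exons held 74.3% of the 70 members at 45 to 50% GC (interval 62.4–84.0), where 57.2% of exonic positions were in last exons. The values were 58.0% of 262 members (51.8–64.1) against 49.5% of positions at 50 to 55% GC, and 45.2% of 248 (38.9–51.6) against 39.0% at 55 to 60%. At 60 to 65% GC they were 47.6% of 82 (36.4–58.9) against 36.0%. In 3 of the 4 classes the members' interval lay above the annotated share, and at 55 to 60% GC it took in that share.

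Members lay mainly in coding sequence and in 3′ UTRs: 376 of 681 (55.2%, 51.4–59.0) had a coding midpoint, 273 (40.1%) lay in a 3′ UTR, 27 in a noncoding RNA and 5 in a 5′ UTR. The coding share was 30.6% of the 36 members with q scores above 60 in any overlapping pair, and 49.6% with a CpG ratio below 0.4. Of exonic CpG-poor positions outside promoters, 49.0% were coding. Inner-exon members were coding in 97.4% of cases, and last-exon members lay in the 3′ UTR in 73.2% and in coding sequence in 20.6%. Coding members had a higher median GC (56.2%) than the other members (53%).

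The peaks were wider than most exons, so a peak marks a stretch and not a site within the exon. The median width was 1048 bp (453 to 8573), and 403 of the 681 peaks (59.2%) were wider than the exon that held their midpoint. Around inner exons, whose median length was 174 bp, the whole exon lay inside the peak for 267 of 308 members (86.7%), and 173 peaks (56.2%) took in at least 2 exons of the transcript. Last exons of members had a median of 2069 bp, the whole exon lay inside the peak for 91 of 369 (24.7%), and 161 peaks (43.6%) ran across the annotated transcript end. A median of 35.8% of an inner-exon peak was exonic sequence, against 83.7% of a last-exon peak. Weighted by length, the median inner exon of all coding genes had 163 bp and the median last exon 2560 bp.

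**Figure D2:**
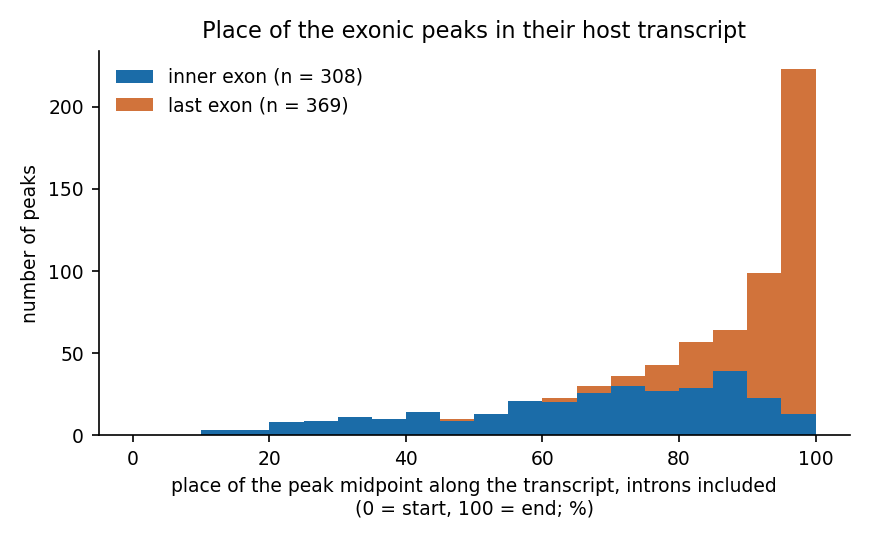
Number of members by the place of the peak midpoint along the host transcript, in steps of 5% of its genomic length (0 is the start and 100 the end), stacked by exon class. The midpoints gathered toward the transcript end, with medians of 71.4% for inner and 96.1% for last exons.

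Along the host transcript the midpoints lay toward the end. The median place was 71.4% of the way for inner-exon members and 96.1% for last-exon members, beside 64.5% and 97.1% for annotated inner- and last-exon positions over 2 kb from a start site. Last-exon midpoints lay a median of 884 bp before the transcript end. The nearest start site was a median of 8457 bp away (2017 to 208436), and for 332 members (48.8%) it was a start site of the host gene itself. The host transcripts of inner-exon members had a median genomic length of 24560 bp and 16 exons, and those of last-exon members 17869 bp and 8 exons. The longest coding transcripts of all 21000 coding genes had medians of 16312.5 bp and 7 exons. The rule itself favours long transcripts, since a member had to lie over 2 kb from a start site (shortest host transcript 3155 bp). No comparison was made with only those transcripts that could meet the rule.

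The q score is minus 10 times log10 of the adjusted p-value the authors' peak caller gave, and only peaks above 30 were deposited. The members' median q score was 47.9 in replicate 1 and 39.2 in replicate 2 (mean 43.6 ± 6.16, SD, n = 2), and their median log2 ratio of ChIP over input was 2.87 and 2.702 (mean 2.78 ± 0.12). Last-exon members had medians of 48.5 and 39.5 and inner-exon members 45.5 and 37.7. Last exons were thus higher by 3.04 and 1.83 within the lists (mean 2.43 ± 0.859, SD, n = 2), the same sign in both. By log2 ratio the order of the classes was not the same in both lists, with 2.88 against 2.85 in replicate 1 and 2.66 against 2.80 in replicate 2 (mean difference -0.05 ± 0.12, SD, n = 2). Intronic peaks found in both lists had median q scores of 46.8 and 39.2, and intergenic ones 48.8 and 39.7. No test was run between these groups, since 2 lists are too few for an exact permutation test to pass a usual threshold.

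A q score above 60 in both lists was reached by 34 members (4.99%) when the replicate 2 peak of largest overlap was read, 25 in last and 9 in inner exons, and by 7.58% of the intronic and intergenic peaks found in both lists. Of the 227 members ranked highest by score 61.7% (55.01–68.0) were in last exons, beside 50.2% of the middle and 50.7% of the lowest 227. The scores of the 2 lists went together only loosely, with a Spearman rho of 0.311 for the q score and 0.196 for the log2 ratio over the 681 members, which share 2 libraries. The replicates also placed a peak differently. The midpoints were a median of 321 bp apart, the replicate 2 midpoint lay in the same exon for 355 members (52.1%) and in any exon for 412 (60.5%), and a replicate 2 peak covered at least 50% of the replicate 1 peak for 337 (49.5%), beside 57.0% of intronic and 61.9% of intergenic peaks.

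**Figure D3:**
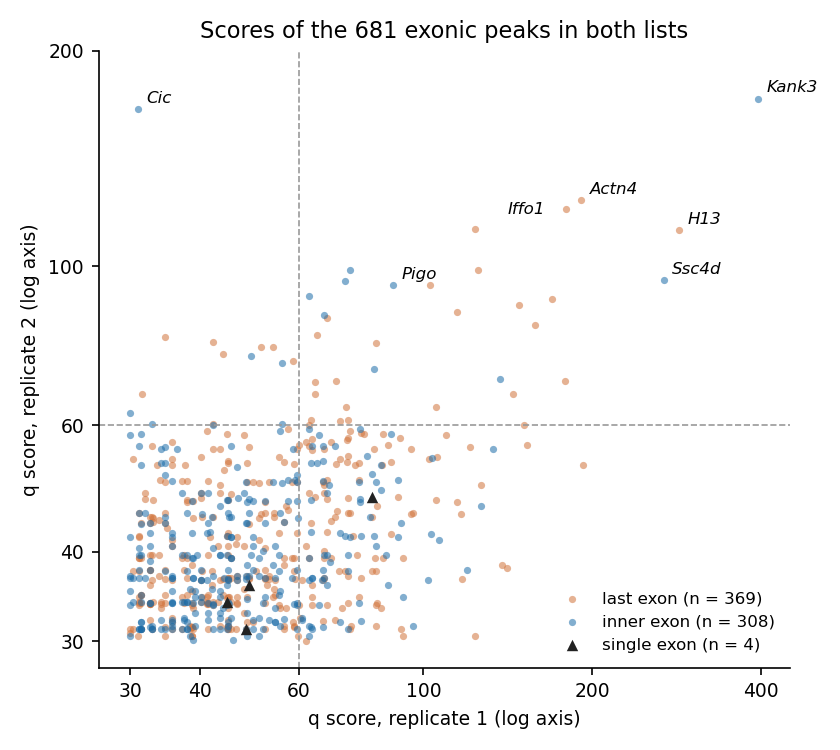
The q score of each of the 681 members in replicate 1 (x axis) and replicate 2 (y axis), both on log axes, coloured by exon class. Dashed lines mark 60, a level that 34 members passed in both lists. Kank3 (396 and 172) stands at the upper right, and Cic (31.0 and 166) was low in one list and high in the other.

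The highest ranked inner-exon member lay in Kank3, which encodes an ankyrin repeat protein of the KANK family. The peak spanned chr17:33816664-33820543, with its midpoint in exon 4 of 11, and had q scores of 396 in replicate 1 and 172 in replicate 2 and log2 ratios of 4.48 and 3.30. It held a GENCODE start site although the nearest RefSeq curated one was 4019 bp away. Ssc4d, a scavenger receptor gene, followed with 268 and 95.6 at chr5:135961864-135964849 in exon 8 of 11. The peak of Pigo, whose product adds ethanolamine phosphate to GPI anchors, scored 88.4 and 94.1 in exon 6 of 10. That of Fdft1, which encodes squalene synthase of cholesterol synthesis, scored 137 and 69.6 in exon 4 of 10. Stat5b, a transcription factor of cytokine signalling, had 74.0 and 99.0 in exon 13 of 19. All 5 had a coding midpoint and a promoter peak of the host gene in both lists, and 4 of the 5 peaks, all but that of Stat5b, held a GENCODE start site.

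The 5 highest ranked last-exon members all had their midpoint in a 3′ UTR. The H13 peak (chr2:152705400-152708538, exon 13 of 13), in the gene of signal peptide peptidase, scored 286 in replicate 1 and 112 in replicate 2, with log2 ratios of 4.23 and 2.89. Actn4, which encodes the actin crosslinker alpha-actinin 4, scored 191 and 124, and Iffo1, an intermediate filament family gene, 180 and 120. Fam131a scored 124 and 113. Pabpn1, which encodes the nuclear poly(A)-binding protein, scored 169 and 90.0. In each of these 5 the q score was higher in replicate 1, as it was for the median member.

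The 4 members in genes of a single exon had median q scores of 48.5 in replicate 1 and 34.996 in replicate 2. Neat1, the long noncoding RNA that forms paraspeckles, had the widest peak of all members (8573 bp, chr19:5828998-5837570) with q scores of 80.8 and 47.7. The others lay in the 3′ UTR of Ankrd63 (48.8 and 36.0), of Rbm15b (44.7 and 34.0), whose product takes part in RNA methylation, and of Fbxl14 (48.3 and 31.2), which encodes an F-box protein of ubiquitin ligases. At the other end, the Amotl2 member had a q score of 30.0003 in replicate 1, just above the deposited limit and the lowest there together with 9 other members, and of these it had the lowest score in replicate 2 (30.5).

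Several members stood just inside the rule. The Twnk peak lay 2017 bp from a start site and a peak of Bak1 that was left out 1999 bp. The CpG ratio was 0.598 for the Ssc4d member and 0.602 for a Sptbn4 peak that was left out, and 150 exonic peaks found in both lists had a ratio of 0.6 or above. The Tbl3 member shared 1 bp with its replicate 2 peak, whereas a Slc12a5 peak missed one by 1 bp. At 9 members the replicate 2 peak reached within 2 kb of a RefSeq curated start site, and at 2 it held one. One of these lay in Cic, which encodes the Capicua repressor: its exon 4 peak scored 31.0 in replicate 1, and the replicate 2 peak, 3873 bp wide with a score of 166, shared 98 bp with it. The other, named after its values were seen, was in Leng8 (42.2 and 78.4, 123 bp shared).

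A few members had a low enrichment in both lists, and they are named after their values were seen. A total of 5 of the 681 members (0.734%) had a log2 ratio under 2 in both lists, beside 0.994% of intronic and 1.11% of intergenic peaks. The Sfi1 member had the lowest ratio in each list (1.10 and 1.24) with q scores of 72.4 and 95.3. Lars2, the gene of a mitochondrial leucyl-tRNA synthetase, had ratios of 1.62 and 1.56 with q scores of 125 and 98.9. Both members of Hjurp, whose product loads CENP-A at centromeres, had ratios from 1.38 to 1.84, with q scores of 63.3 and 57.4 for one and 61.7 and 30.03 for the other. The noncoding RNA 5930430L01Rik had ratios of 1.92 and 1.97, with q scores of 38.9 and 33.3 that lay below the members' medians. Reads that fit several places were assigned at random by the authors, and their part at these genes was not tested.

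Many members lay near a start site that RefSeq curation does not list. Of the 681, 287 (42.1%, 38.4–46.0) lay within 2 kb of a start site of the broader GENCODE M21 annotation and 136 (19.97%) held one, against 22.1% of the intronic and intergenic peaks found in both lists within 2 kb. Coding members were within 2 kb in 52.4% of cases and the other members in 29.5%. Inner-exon members were within 2 kb in 58.8% of cases (53.0–64.3) and last-exon members in 28.5% (23.9–33.4). GENCODE places many start sites inside genes, and 33.3% of inner-exon and 14.9% of last-exon CpG-poor positions lay within reach of one when a window of 500 bp to each side stood for the peak. The same figures for introns were 27.8% of peaks and 12.4% of positions, and for intergenic sequence 15.8% and 6.60%. So peaks lay above the annotated positions in all 4 kinds of region.

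**Figure D4:**
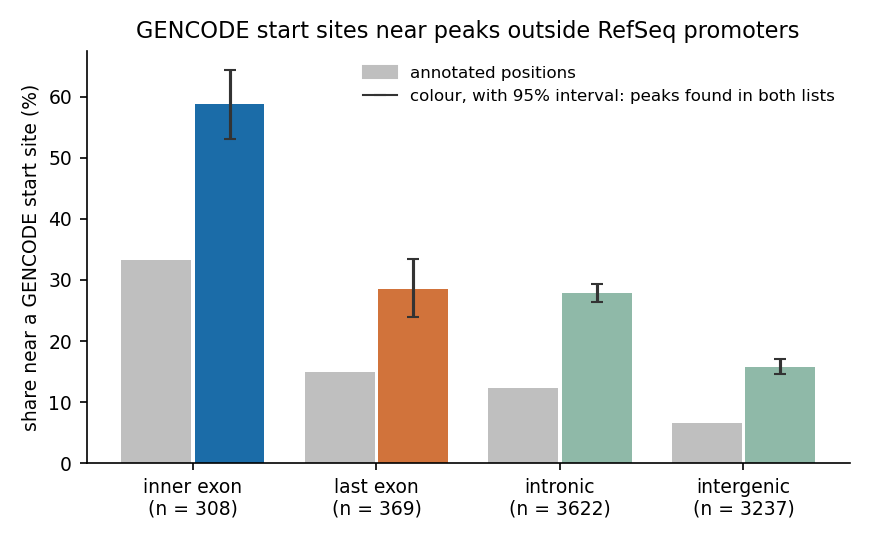
Share (%) of annotated CpG-poor positions (grey) and of peaks found in both lists (colour, with exact binomial 95% intervals) that lay within 2 kb of a GENCODE M21 start site, all of them over 2 kb from RefSeq curated start sites. Inner-exon members stood highest at 58.8%, against 33.3% of inner-exon positions.

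The gap differed between classes of GC. At 45 to 50% GC 18.6% of 70 members lay within 2 kb of a GENCODE start site, below the 21.6% of exonic positions and the 23.8% of intronic peaks found in both lists. At 50 to 55% GC, 38.9% of 262 members lay within 2 kb of a GENCODE start site, against 28.0% of exonic positions, and at 55 to 60% GC 50.4% of 248 members did, against 36.5%. Split by rank into 3 classes of 227, the highest class held 47.1% (40.5–53.9), the middle one 43.2% and the lowest one 36.1% (29.9–42.7), intervals that overlapped. Start sites of GENCODE coding transcripts lay within 2 kb of 82 members (12.04%), beside 8.78% of intronic and 3.06% of intergenic peaks found in both lists. Predicted RefSeq start sites lay within 2 kb of 54 members (7.93%), a lower share than the 10.8% of intronic and 14.1% of intergenic peaks. Among members named above, the peaks of Kank3, Ssc4d, Pigo, Fdft1 and Actn4 held a GENCODE start site, and those of Stat5b and H13 lay 15294 bp and 8708 bp from one. A small RNA gene lay within 1 kb of 3 members (0.441%), all in inner exons, beside 0.580% of intronic and 1.08% of intergenic peaks found in both lists.

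SOX motifs were counted in the 300 bp around the midpoint and in the whole peak. In the 300 bp around the midpoint, AACAAT was found on either strand in 7.34% of members and ACAAAG in 17.0%, and at least 1 of them in 23.2% (158 of 681). Over the whole peak, a median of 1048 bp, 65.8% (448 of 681) held at least 1. The share in 300 bp was 32.1% for intronic and 31.5% for intergenic peaks found in both lists, 27.4% in windows 1 kb beyond the members' edges and 27.03% in all annotated promoters of 300 bp. Among exonic peaks of replicate 1 only it was 25.7% (672 of 2616). Both motifs are AT-rich and the members are GC-rich, and the part of base composition in these shares was not tested. At 45 to 50% GC, 34.3% of members, 41.9% of intronic and 38.7% of intergenic peaks held a match. At 50 to 55% GC the shares were 24.0%, 31.2% and 30.4%, and at 55 to 60% GC they were 22.2%, 22.1% and 24.0%. By rank, the highest 227 members held a match in 18.9% of cases and the lowest 227 in 26.9%. The AP-1 motif TGANTCA, searched on both strands, was in 6.90% of members, 6.90% of the windows beyond their edges and 7.81% of all annotated promoters. AACAAT and ACAAAG share the letters ACAA but cannot both be read from the same copy of them.

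The core consensus of CTCF, the insulator protein, was found on either strand at 12 members (1.76%), 8 in inner and 4 in last exons. Over the whole peak it was at 8.08% of the 681 members. In the 300 bp around the midpoint it was at 0 of the 36 members with q scores above 60 in any overlapping pair. Over all exonic CpG-poor peaks of 1 list, with no overlap asked, it was at 0.725% without replicate 1 and 0.971% without replicate 2. In 300 bp it was at 2.07% of intronic and 2.72% of intergenic peaks found in both lists, 0.765% of exonic peaks of replicate 1 only, 0.441% of the windows beyond the members' edges and 0.557% of all annotated promoters. The 12 matches lay a median of 51.5 bp from the midpoint and are shown with 9 bases either side, the match in capitals, because the share at members was above that in their flanks.
Tbx21, chr11:97101876-97101905, plus strand: ttgagtaatCCACCAGGGGGCgccctgtct
Capn2, chr1:182489875-182489904, plus strand: cctcggtgaCCAGCAGAGGGCagcgcgcgc
Grn, chr11:102434596-102434625, minus strand: ttcaaaccgCCACTAGGGGGCagcatgagc
Sema4b, chr7:80215568-80215597, minus strand: ccacatatgCCACTAGGGGGCagggctgag
Chrna3, chr9:55024098-55024127, plus strand: aggcaatcaCCACCAGGGGGCagcagtaca
Mdc1, chr17:35848210-35848239, minus strand: cctgatttaCCACTAGATGGCtgccagggg
Coro7, chr16:4632251-4632280, plus strand: ttctcgaggCCACCAGGGGGCacccgccat
Dglucy, chr12:100841399-100841428, minus strand: tcattgtgaCCACCAGAGGGCagcagaagc
Iqce, chr5:140664093-140664122, minus strand: catttttctCCACCAGGGGGCaaaacacaa
Med29, chr7:28386665-28386694, minus strand: cagctgaaaCCAGCAGGGGGCagcagagtc
Rps19bp1, chr15:80260870-80260899, minus strand: cacgagcgaCCAGCAGGTGGCagtgcaaaa
1500009C09Rik, chr15:82259700-82259729, minus strand: gatcacggtCCACCAGGGGGCgctgcatgc
The peak midpoint was coding in Tbx21, Capn2, Grn, Sema4b, Chrna3, Mdc1, Coro7 and Dglucy. It lay in a 3′ UTR in Iqce, Med29 and Rps19bp1, and in a noncoding RNA in 1500009C09Rik. The match itself lay outside the exon that held the midpoint in Tbx21, Capn2, Grn, Sema4b and Chrna3, and inside it in the other members. Tbx21, which encodes the T-bet factor of T cells, had the highest rank of the 12 with q scores of 55.6 and 45.3, and Grn, the progranulin gene, had 39.5 and 39.5. The lowest was Dglucy with 31.1 and 31.2.

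The 681 members lay in 646 host genes, of which 622 (96.3%) were protein-coding. A promoter peak in both lists was present at 531 host genes (82.2%, 79.0–85.1), in 1 list at 75 and in 0 lists at 40. Of the coding host genes 519 of 622 (83.4%, 80.3–86.3) had one in both lists, against 57.9% of all 21000 coding RefSeq genes. Genes with an intronic peak found in both lists had a promoter peak in both in 82.4% (80.8–84.0), and genes with an exonic peak of replicate 1 only in 79.1% (77.3–80.8), so the share at the members' genes was close to that of genes with any other CpG-poor peak in their body. It was 82.9% for hosts of inner-exon members and 82.1% for hosts of last-exon members. An intronic peak found in both lists was also present in 222 of the 646 host genes (34.4%). Of all 21000 coding genes 2218 held such an intronic peak, and the genes were not matched for length.

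A total of 34 genes held more than 1 member, with 69 members between them. Myo18a, an unconventional myosin gene, had 3, in exons 2, 21 and 41 of 41, with q scores of 35.7 and 32.1, 81.6 and 71.8, and 41.2 and 34.0. Actn4 held an inner-exon member (exon 13 of 22, 90.2 and 50.3) beside its last-exon one. Heyl, a Notch target gene of the bHLH class, had 2 members in its last exon (70.95 and 53.8, and 66.3 and 50.01). Adgrl1, a latrophilin adhesion receptor gene, had members in exons 7 and 23 of 23 (49.8 and 37.7, and 102 and 53.8). The axonemal dynein heavy chain gene Dnah17 had 2 inner-exon members (48.5 and 34.4, and 38.9 and 30.1), and Dnah2 likewise (56.4 and 32.2, and 38.9 and 36.7). Members of a gene share its neighbourhood and are not independent.

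By gene lists, chosen with earlier results of these data known, members were few at germ cell genes, as they were at coding genes as a whole, of which 622 of 21000 (2.96%) held one. Of 47 spermatogonial stem and progenitor genes 1 held a member, Dmrt1, a sex determination factor of germ and Sertoli cells, with q scores of 45.5 and 32.3 in coding exon 3 of 5. Of 41 meiotic genes 0 did, and of 38 spermatid and sperm genes 2 did, Dnah17 and Dnah1. Of 28 Sertoli cell genes 3 did: Inhbb, which encodes the beta B subunit of inhibin and activin (77.4 and 58.5), Dmrt1, and Cyp26b1, an enzyme that breaks down retinoic acid (32.6 and 33.9). Of 32 Leydig, peritubular and vascular genes 3 did, the VEGF receptor gene Flt1 (40.2 and 54.2) and the collagen genes Col4a2 (35.7 and 53.8) and Col1a1 (38.3 and 30.5).

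Signalling and chromatin lists held a few members each. Of 75 Wnt, Notch and Hedgehog genes 5 did (6.67%), among them Heyl and Wnt6, a ligand gene (77.4 and 42.1). Of 62 genes of the TGF-β, BMP, FGF and GDNF pathways 1 did, the activin receptor gene Acvr2b (41.4 and 34.8). Of 84 chromatin and DNA methylation regulators 7 did (8.33%), 5 in inner and 2 in last exons. Among them were Kmt2d, an H3K4 methyltransferase gene (55.9 and 73.2), and Kdm6b, an H3K27 demethylase gene (119 and 37.7). A promoter peak in both lists was present at 80 of these 84 genes (95.2%), including all 7 with a member.

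Of 79 adhesion, matrix and migration genes 7 held a member (8.86%), led by the filamin gene Flna (54.4 and 40.8), the semaphorin receptor gene Plxna1 (55.3 and 37.6) and the semaphorin gene Sema4b (60.7 and 32.1). Of 20 SOX genes 1 did, Sox13, in the 3′ UTR of its last exon (82.6 and 46.3). Of 489 zinc finger genes 20 did (4.09%), led by Zbtb7b (69.9 and 69.3), Zfp219 (82.5 and 50.01) and Zfp239 (67.3 and 50.3). Of 44 collagen genes 4 did and of 397 solute carrier genes, taken by the start of their symbol, 10 did (2.52%), with Slc29a1, a nucleoside transporter gene, highest at 151 and 60.1. The protocadherin (70), homeobox cluster (45) and olfactory receptor (1125) lists held 0 members. A short gene holds few exonic positions over 2 kb from a start site, and the lists were not matched for gene length. Of 110 genes whose symbol starts like a ribosomal protein 2 did, Rps24 and Rps19bp1, the second of which is no ribosomal protein.

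Of the 681 members 0 overlapped a ChIP-nexus peak of either replicate, lists of 111 and 19 peaks, with the same limits of 0.441% and 0.540%. Lists this short cannot tell the members from other peaks, whose overlap is not given here. By chromosome the members ranged from 0 on Y and 6 (0.881%) on X to 83 (12.2%) on chromosome 11, which held 10.6% of all CpG-poor peaks found in both lists.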

How the data were processed

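SOX3 ChIP-seq and ChIP-nexus were measured in 2 replicates each from testis. Per the study's methods, Novoalign placed the ChIP-seq reads on mm10, reads that fit several places were assigned at random, duplicates were removed with Picard, and peaks were called per replicate with USeq. The methods also name a removal of blacklisted genome regions and an overlap rule between merged and replicate peaks. The deposited lists do not tell whether these steps were applied to them, and no blacklist filter was added here. They also have no header. From their layout and values, the ChIP-seq columns are scores (minus 10 times log10 of p and of the FDR-adjusted p, kept above 30 by the authors) and a log2 ratio of ChIP over input. The deposited ChIP-nexus lists, in the layout of MACS2 2.1.1, hold a score, a fold enrichment ratio and −log10 p and q values.

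Exons and start sites came from 45756 curated transcripts of 26180 RefSeq genes (GRCm38.p6). Exon class was read from the longest coding transcript at the midpoint, else the longest transcript. Peaks were joined with Python 3.11.15 and pandas 2.3.3, the overlaps were compared with those of bedtools 2.31.1, and the steps were tested on peaks simulated for the purpose. Intervals are exact binomial (scipy 1.17.1, 95%) and cover counting error only. Named members were the 5 of each class with the highest mean percentile rank of q score, genes with more than 1 member, those with a CTCF match, up to 3 per gene list, and the lowest q score. One gene that this rule named is not reported here. The members and lists were chosen with earlier results of these data known. Alternatives changed overlap, score, promoter window, CpG limit and window, position, annotation, motif window and the lists used. The 15 other samples were not analysed here.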

Additional observations from a re-analysis of the deposited data

How the results depend on the processing

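No paired analysis was possible because the results come from no test and no groups of samples were compared, and differences between exon classes within each list are given in the report. Of 118 values recomputed under 14 settings, 90 stayed within the spread of the value reported (for a share its 95% interval, for a number 1.5 times, for a median 1 SD between replicates) and 28 did not. The number of members was 337 when a replicate 2 peak had to cover 50% of the replicate 1 peak, and the share of host genes with a promoter peak was then 78.6%. That share was 78.7% with a promoter window of 1 kb and 85.7% with 5 kb. A CpG ratio below 0.4 gave a coding share of 49.6%. With q scores above 60 in any overlapping pair 36 members were left, of which 27.8% were in inner, 72.2% in last and 0% in single exons. Their median q score was 89.6 and log2 ratio 3.12, and 30.6% were coding. A promoter peak, here also with a q score above 60 in both lists, was present at 66.7% of their host genes. Of these 36 members 19.4% held a SOX and 0% a CTCF motif in the 300 bp around the midpoint. With the motif searched over the whole peak, 65.8% of all 681 members held a SOX and 8.08% a CTCF motif. Without replicate 1 or without replicate 2, with no overlap asked, the number was 1792 and 3297. The inner-exon share was 49.1% and 50.05% and the last-exon share 49.9% and 49.1%, so without replicate 2 inner exons were the larger class. In the same order, the median q score was 36.6 and 38.9 and the median log2 ratio 2.92 and 2.85. The coding share was 58.0% and 59.96% and the CTCF share 0.725% and 0.971%. The promoter share, here for a promoter peak in the 1 list kept, was 82.7% and 88.7%. The number was 741 with positions from replicate 2, 812 with predicted RefSeq transcripts and 486 with GENCODE. The lists hold no read counts, so depth was not tested.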
